A study of Rattus norvegicus with 6 samples.

Results

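A group of 9 mature miRNAs known from work on dendrites and synapses was followed in the peri-infarct cortex of rats after stroke. The group was chosen by name and holds rno-miR-135a-5p, rno-miR-135b-5p, rno-miR-137-3p, rno-miR-138-5p, rno-miR-138-1-3p, rno-miR-218a-5p, rno-miR-218a-2-3p, rno-miR-153-3p and rno-miR-153-5p (the prefix rno marks the rat and is mostly left out from here on), which are 9 of the 493 mature miRNAs in the deposited count table. All 9 were listed, and all 9 passed the filter on low counts, which left 452 miRNAs to test. For miR-153-5p and miR-218a-2-3p this was so only through the counts of the MCAO group.

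Small RNA libraries, 3 for MCAO and 3 for MCAO + rTMS, were made from male Sprague-Dawley rats of 250 to 270 g whose age is not given in the sources used here. In all of these rats the right middle cerebral artery was closed for 90 min and then reperfused (MCAO), and the MCAO + rTMS rats also received repetitive transcranial magnetic stimulation, magnetic pulses given through a coil over the head, at 10 Hz for 10 min a day over 7 days. Per the methods, stimulation began a day after reperfusion and came in short trains of pulses with longer rests between them. Pulses were thus not given without pause, and the methods do not state the 10 min. The labels place the tissue of the MCAO rats at 7 days and give no day for the MCAO + rTMS rats, while the heading of the authors' selection of miRNAs from this comparison gives 7 days. Sequencing used n = 3 rats per the methods, so p-values measure the spread between 3 libraries a group. No library of a sham-operated or sham-stimulated rat was analysed here.

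miRNAs are cut as a duplex from a hairpin precursor. Usually the strand of 1 arm, 5p or 3p, is loaded into an Argonaute protein and kept, while the other strand is degraded. The loaded strand finds its target mRNAs through the seed, bases 2 to 8 from its 5′ end, and lowers their translation or stability. In neurons miR-138-5p is known to limit the size of dendritic spines, miR-137-3p to act on neuronal maturation and dendrite growth, miR-218a-5p and the miR-135 pair to take part in long-lasting changes of synaptic strength, and miR-153-3p to target proteins of synaptic vesicle release.

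The mature sequences show which of these miRNAs could share targets or reads. They are given 5′ to 3′ as in RefSeq (assembly GRCr8), with the seed in capitals. The first 9 are the group itself, and the last 2 are the opposite arms on which the arm comparison turned.
miR-135a-5p: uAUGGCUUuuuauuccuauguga
miR-135b-5p: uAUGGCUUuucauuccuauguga
miR-137-3p: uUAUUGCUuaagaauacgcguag
miR-138-5p: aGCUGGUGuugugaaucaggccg
miR-138-1-3p: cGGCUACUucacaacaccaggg
miR-218a-5p: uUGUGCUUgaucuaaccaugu
miR-218a-2-3p: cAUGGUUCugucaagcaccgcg
miR-153-3p: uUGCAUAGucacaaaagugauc
miR-153-5p: gUCAUUUUugugauguugcagcu
miR-135a-3p: uGUAGGGAuggaagccaugaaa
miR-137-5p: aCGGGUAUucuuggguggauaa

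Within the group, only miR-135a-5p and miR-135b-5p had the same seed. They have 23 bases each and differ by U11C, with positions counted from the 5′ end and the base of miR-135a-5p first, so how reads were divided among this pair rests on the authors' counting. None of the other 7 shared its seed with another listed miRNA that had a sequence in RefSeq, which covered 451 of the 493. miR-138-5p comes from 2 hairpins, as does miR-218a-5p, and the counts cannot be divided between the hairpins. The 3p arms of miR-138 and miR-218a differ between hairpins and mark a single locus each.

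In GRCr8 the hairpins lie on 8 chromosomes. Mir218-2 (chr10:20572523-20572632, plus strand) lies within the span of Slit3 and Mir218-1 (chr14:66922348-66922457, minus strand) within that of Slit2, both genes of axon guidance ligands. Mir153 (chr6:144306594-144306680, plus strand) lies within the span of Ptprn2, a protein of dense-core vesicles, and of a long non-coding RNA gene. Mir138-2 (chr19:10680133-10680214, minus strand) lies within the span of Slc12a3, and Mir135b (chr13:46191018-46191114, plus strand) within those of Lemd1 and Blacat1. Mir135a (chr7:28499166-28499265, minus strand), Mir137 (chr2:209165709-209165810, plus strand) and Mir138-1 (chr8:131178434-131178532, plus strand) are spanned by long non-coding RNA genes only. The gene table gives spans without exons, so intronic and exonic positions were not told apart. The strand of the spanning genes was not compared with that of the hairpins.

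The libraries held 10492610 to 15411620 counts each (medians 11457692 for MCAO and 14794712 for MCAO + rTMS). The smallest count above 0 was 10, so a 0 in the table stands for at most 9 reads. Levels are given as CPM, the counts per 1000000 of a library total that was scaled with edgeR's TMM factors. These factors were 1.16 to 1.39 in the MCAO libraries and 0.695 to 0.864 in the MCAO + rTMS libraries, so CPM and the direction of small changes depend on them. Without the factors (library totals only), the median over all tested miRNAs moved from -0.21 to -0.80 on the log2 scale, and the calls divided into 55 higher and 208 lower in place of 123 and 127. Each read stands for 1 mature miRNA of about the same length, so levels of different miRNAs were set side by side without a length term, although adapter ligation is known to favour some sequences.

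Of the 9 miRNAs, 6 were called lower after rTMS, that is with an adjusted p below 0.05 by the quasi-likelihood test of edgeR (Benjamini-Hochberg, over the 452). None was higher, and 3 did not pass the threshold. Over all tested miRNAs 28.1% were called lower. The 6 were miR-135a-5p, miR-135b-5p, miR-137-3p, miR-138-5p, miR-153-5p and miR-218a-2-3p. In the same 6 every MCAO + rTMS library was below every MCAO library. Over all tested miRNAs, 66.8% had groups that did not overlap in either direction, and 36.1% had all stimulated libraries below. The median log2 fold change of the 9 was -1.35 with the 2 miRNAs listed at 0 put at their bound, -1.85 as fitted, and -0.21 for all tested. Without these 2, which passed the filter through the MCAO group alone, 4 of 7 were called, with a median of -1.65. With library totals only 7 of the 9 were called lower, where 208 of all 452 tested were. With a correction for GC content 5 were, beside 109 of 414, and with the replicate number as a block 4, beside 82 of 452. The 7 and the 5 include the 2 miRNAs that passed the filter through the MCAO group alone. In bulk tissue, fewer cells of a type and less of a miRNA in each cell cannot be told apart.

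**Figure D1:**
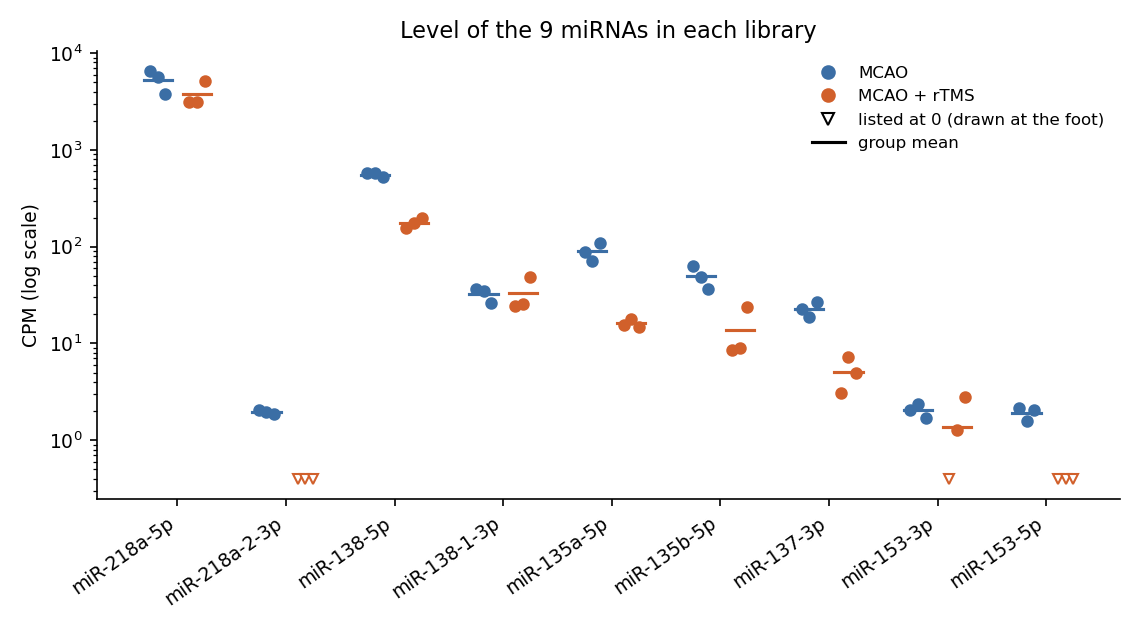
Level of the 9 miRNAs in each library, as CPM on a log axis, for 3 MCAO libraries (blue) and 3 MCAO + rTMS libraries (orange), with a line at each group mean and open triangles for libraries listed at 0. The groups separate for miR-138-5p, miR-135a-5p, miR-135b-5p, miR-137-3p, miR-218a-2-3p and miR-153-5p and overlap for miR-218a-5p, miR-138-1-3p and miR-153-3p.

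The first 2 places in the order of levels were the same in both groups. miR-218a-5p was the most abundant in both groups, at place 21 of the listed miRNAs by mean CPM with MCAO alone and place 30 with rTMS, and held 87.1% ± 2.96 and 93.7% ± 0.811 (SD, n = 3 each) of the counts of the 9. miR-138-5p came next and lay apart from its neighbours in both groups. In the MCAO group miR-135a-5p, miR-135b-5p, miR-138-1-3p and miR-137-3p followed, where miR-138-1-3p overlapped with both miR-135b-5p and miR-137-3p. In the MCAO + rTMS group miR-138-1-3p took place 3, above both miR-135 members, which overlapped with each other. At the foot of the order, miR-153-3p, miR-218a-2-3p and miR-153-5p overlapped in the MCAO group at about 2 CPM. Together the 9 held 0.7496% ± 0.124 of all counts in MCAO libraries against 0.317% ± 0.0499 in stimulated libraries (± SD, n = 3 per group), with no overlap (exact permutation test, two-sided, p = 0.1, the smallest that 3 libraries against 3 allow). This share is not scaled, and most of it is miR-218a-5p. As TMM-scaled CPM the sums overlapped, at 4497 to 7302 in the MCAO libraries and 3334 to 5389 in the stimulated libraries. Without miR-218a-5p, the other 8 held 0.0944% ± 0.00772 and 0.0197% ± 0.00147 of all counts (± SD, n = 3 per group).

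miR-135a-5p had the lowest log2 fold change among the members with counts in both groups. Its level was 87.5, 70.8 and 110 CPM in MCAO replicates 1, 2 and 3 and 15.6, 17.96 and 14.9 CPM in MCAO + rTMS replicates 1, 2 and 3. Every stimulated library lay far below the lowest MCAO library, and the MCAO + rTMS libraries differed from each other by less than the MCAO libraries did. The log2 fold change was -2.47 ± 0.23 (SE, adjusted p = 0.00027 by edgeR), a level 5.54-fold lower, at rank 21 from the bottom of the 452. It held in all 18 alternative fits.

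Its paralog miR-135b-5p was at 63.7, 48.1 and 36.3 CPM in the MCAO libraries and 8.50, 8.94 and 23.8 CPM in the MCAO + rTMS libraries. The groups did not overlap, although MCAO + rTMS replicate 3 stood well above the other 2. The log2 fold change was -1.85 ± 0.44 (SE, adjusted p = 0.011 in the same edgeR test). It was -2.47 without MCAO + rTMS replicate 3, and with a correction for GC content the call was lost (-1.11, adjusted p = 0.071 by edgeR). The ratio of miR-135a-5p to miR-135b-5p, which does not depend on scaling, was 1.37, 1.47 and 3.03 in the MCAO libraries and 1.83, 2.01 and 0.624 in the MCAO + rTMS libraries. These ratios overlapped, and a difference between the groups was not detectable (exact permutation test, two-sided, p = 0.6, adjusted p = 0.6 over 4 pairs).

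miR-137-3p, at 23.0, 18.6 and 26.7 CPM in the MCAO libraries, was at 3.08, 7.25 and 4.96 CPM in the MCAO + rTMS libraries. The highest stimulated library was well below the lowest MCAO library. The log2 fold change was -2.16 ± 0.33 (SE, adjusted p = 0.0019 in the same edgeR test), from counts of 226 to 427 in the MCAO group and 41 to 86 in the MCAO + rTMS group. It was called in all 18 alternative fits, and with each library left out in turn the log2 fold change lay between -2.47 and -1.90.

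Of the 6 members with counts in every library, miR-138-5p had the narrowest spread in the MCAO group. It was at 572, 571 and 527 CPM in the MCAO libraries and 157, 177 and 199 CPM in the MCAO + rTMS libraries, a coefficient of variation of 4.57% and 12.0%. All stimulated libraries were far below all MCAO libraries. The log2 fold change was -1.65 ± 0.18 (SE, adjusted p = 0.00045 in the same edgeR test), called in all 18 alternative fits. It was the only one of the 9 in the smaller table of 73 miRNAs that the authors selected.

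miR-218a-5p, the most abundant member, was at 6513, 5720 and 3765 CPM in the MCAO libraries and 3126, 3108 and 5094 CPM in the MCAO + rTMS libraries. MCAO + rTMS replicate 3 was above MCAO replicate 3, so the groups overlapped. Its log2 fold change of -0.50 ± 0.29 (SE, adjusted p = 0.17 in the same edgeR test) did not pass the threshold. With library totals only it was called (-1.14, adjusted p = 0.0033), as it was without MCAO + rTMS replicate 3 (-0.74, adjusted p = 0.034), and with the GC correction the value was 0.075. Within each library, the count of miR-138-5p was 0.0878, 0.0998 and 0.140 times that of miR-218a-5p in the MCAO libraries and 0.0502, 0.0568 and 0.0391 times in the MCAO + rTMS libraries. For miR-135a-5p, miR-135b-5p and miR-137-3p this ratio was also lower in every stimulated library, by 1.48 to 1.95 on the log2 scale between the group means. For miR-138-1-3p it was higher in every stimulated library, by 0.45. Each of these 5 ratios had p = 0.1 in the exact permutation test, the smallest possible, and an adjusted p of 0.118 over 13 pairs.

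The rare members sat near the lowest count that the table lists. miR-218a-2-3p, from the locus in Slit3, had counts of 32, 24 and 30 in the MCAO libraries and was listed at 0 in all 3 MCAO + rTMS libraries. With 9 reads put in each of these, its level was at least 2.55-fold lower in the MCAO + rTMS group. miR-153-5p had counts of 34, 19 and 33 against 0 in every stimulated library, which made it at least 2.51-fold lower by the same bound. Their adjusted p in the same edgeR test was 0.0018 and 0.0020, and 0.066 and 0.067 with the replicate number as a block. As both passed the filter on low counts through the MCAO group alone, these p-values are no separate support for a fall. The other arm, miR-153-3p, had counts of 32, 29 and 27 in the MCAO libraries and 0, 15 and 29 in the MCAO + rTMS libraries. Its groups overlapped, and a difference was not detectable at this depth (log2 fold change -0.61 ± 0.96 SE, adjusted p = 0.62). With each 0 set to 9, the log2 ratio of miR-153-3p to miR-153-5p was 0.73 higher with rTMS, with overlap (exact permutation test, two-sided, p = 0.2, adjusted p = 0.27 over 4 pairs). That of miR-218a-5p, whose counts pool 2 hairpins, to miR-218a-2-3p was at least 0.86 higher, with no overlap (p = 0.1 in the same exact test, adjusted p = 0.2). Both ratios divide by a miRNA listed at 0 in every stimulated library, which passed the filter through the MCAO group alone. These ratios and their p-values are therefore no separate support for a fall either.

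**Figure D2:**
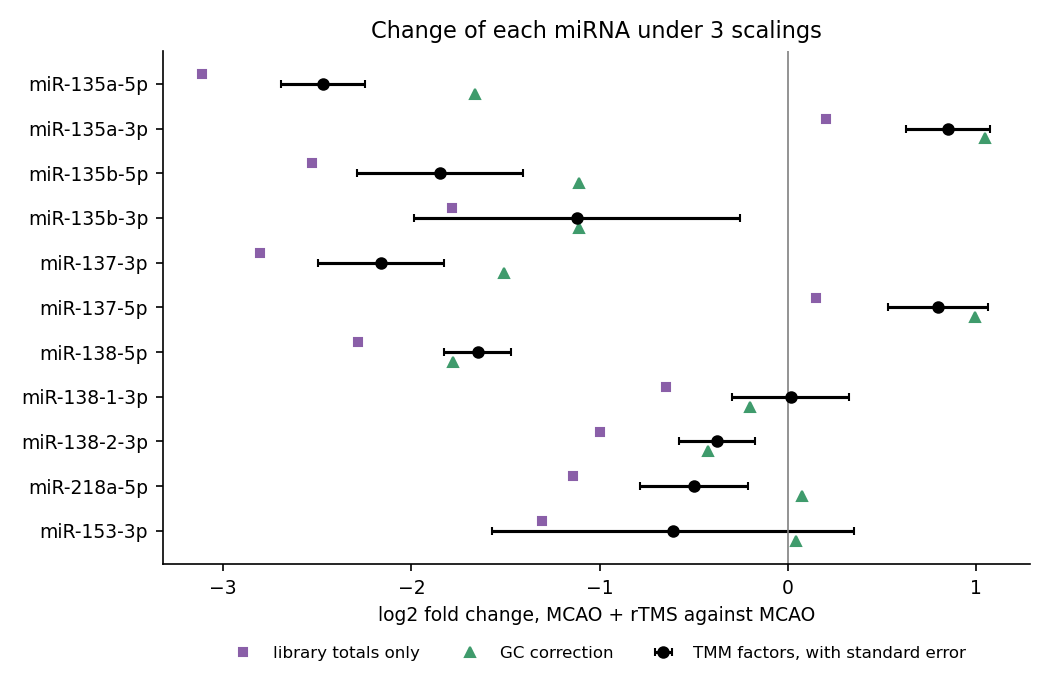
Log2 fold change of 7 of the 9 miRNAs and 4 opposite arms between MCAO + rTMS and MCAO, with TMM factors (black, bars are standard errors from 3 against 3 libraries), library totals only (purple) and a correction for GC content (green). miR-135a-5p, miR-135b-5p, miR-137-3p and miR-138-5p lay below -1 in all 3 fits, while miR-135a-3p and miR-137-5p lay above 0 in all 3.

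The arms of a hairpin are cut from the same precursor. Their ratio within a library does not depend on the scaling, since both counts come from that library. This ratio was compared between the groups for the hairpins of the group, and the comparison was chosen after the counts had been seen. miR-135a-3p, the arm that is usually degraded, was at 9.36, 8.33 and 12.96 CPM in the MCAO libraries and 17.8, 19.3 and 18.3 CPM in the MCAO + rTMS libraries. It was higher in every stimulated library, with a log2 fold change of 0.85 ± 0.22 (SE, adjusted p = 0.015 by edgeR), while miR-135a-5p fell. miR-137-5p was at 4.71, 7.84 and 7.89 CPM in the MCAO libraries and 10.3, 12.2 and 13.02 CPM in the MCAO + rTMS libraries (log2 fold change 0.80 ± 0.26 SE, adjusted p = 0.036 in the same test). Neither rise passed the threshold by library totals alone (adjusted p = 0.57 and 0.67) or by upper-quartile factors (0.083 and 0.14). Neither was called without MCAO replicate 1 (0.79, adjusted p = 0.054, for miR-135a-3p and 0.59, adjusted p = 0.090, for miR-137-5p) or without MCAO replicate 2 (0.73, adjusted p = 0.066, and 0.91, adjusted p = 0.067). The rise of miR-137-5p was also lost without MCAO + rTMS replicate 2 (0.82, adjusted p = 0.075) and without MCAO + rTMS replicate 3 (0.74, adjusted p = 0.066), and when log2 values were compared with equal variances (0.74, adjusted p = 0.066).

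For miR-135a the 5p arm had 9.35, 8.50 and 8.48 times the count of the 3p arm in the MCAO libraries and 0.873, 0.930 and 0.814 times in the MCAO + rTMS libraries. The usual order of the arms was thus reversed in all 3 stimulated libraries, with little spread within either group. For miR-137 the 3p arm had 4.88, 2.38 and 3.39 times the count of the 5p arm in the MCAO libraries and 0.299, 0.593 and 0.381 times in the MCAO + rTMS libraries, again with the order reversed in each stimulated library. For miR-138 the 5p arm, whose counts pool 2 hairpins, stayed ahead. Its count was 15.7, 16.3 and 20.1 times that of miR-138-1-3p in the MCAO libraries and 6.46, 6.93 and 4.06 times in the MCAO + rTMS libraries. Against miR-138-2-3p it was 25.3, 24.3 and 30.3 times and 10.4, 11.1 and 11.1 times.

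**Figure D3:**
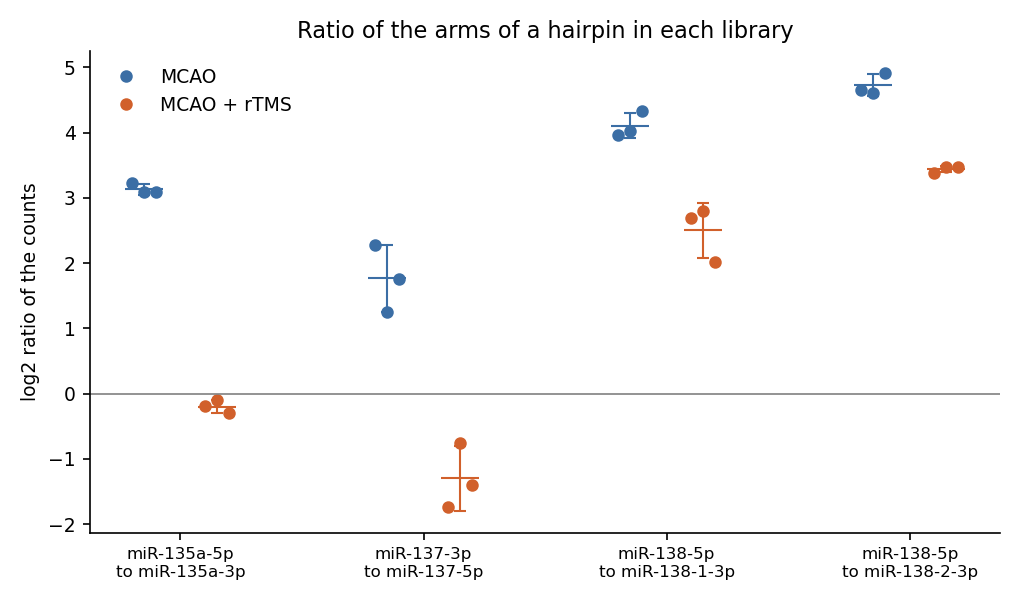
Log2 ratio of the counts of 2 arms in each of 3 MCAO libraries (blue) and 3 MCAO + rTMS libraries (orange), with group means and SD, where 0 is an equal count. For miR-135a and miR-137 the ratio lay above 0 in all MCAO libraries and below 0 in all MCAO + rTMS libraries, and for miR-138 it was lower but stayed above 0.

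The log2 ratios of the 5p to the 3p count were fitted with limma over all 123 hairpins with at least 10 counts of both arms in all 6 libraries. The arm ratio changed with an adjusted p under 0.05 in 55.3% of them, so a change alone was common. A reversed order of the arms was not particular to miR-135a and miR-137. The mean log2 ratio also changed sign from MCAO to MCAO + rTMS for miR-195 (0.72 to -1.99), miR-296 (1.62 to -1.07) and miR-664-2-5p to miR-664-3p (-2.52 to 1.10). It also changed sign for miR-708 (0.19 to -2.46), miR-380 (-0.45 to 0.62), miR-181c (0.24 to -0.63) and miR-29c (-0.16 to 0.29). The changes for miR-181c and miR-29c did not pass the threshold (adjusted p = 0.051 and 0.49 by limma). The change for miR-135a was -3.33 ± 0.24 (SE, adjusted p = 4.3e-05), a 10.1-fold shift away from the 5p arm, at place 6 by size among the 123. That for miR-137 was 3.06 ± 0.37 (SE, adjusted p = 0.00027), an 8.35-fold shift away from the 3p arm, at place 7. The ratio of miR-138-5p to miR-138-1-3p changed by -1.61 ± 0.30 (SE, adjusted p = 0.0021) and that to miR-138-2-3p by -1.29 ± 0.24 (SE, adjusted p = 0.0022), where the median size over all hairpins was 1.09. Both miR-138 ratios use the same miR-138-5p counts, which pool 2 hairpins, so neither is the arm ratio of a single hairpin. All 4 changes passed the threshold with each library left out in turn. In 21 of the 123 hairpins (17.1%), miR-135a and miR-137 among them, edgeR called both arms in opposite directions. With the GC correction, the difference between the log2 fold changes of the arms was -2.71 for miR-135a and 2.50 for miR-137.

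**Figure D4:**
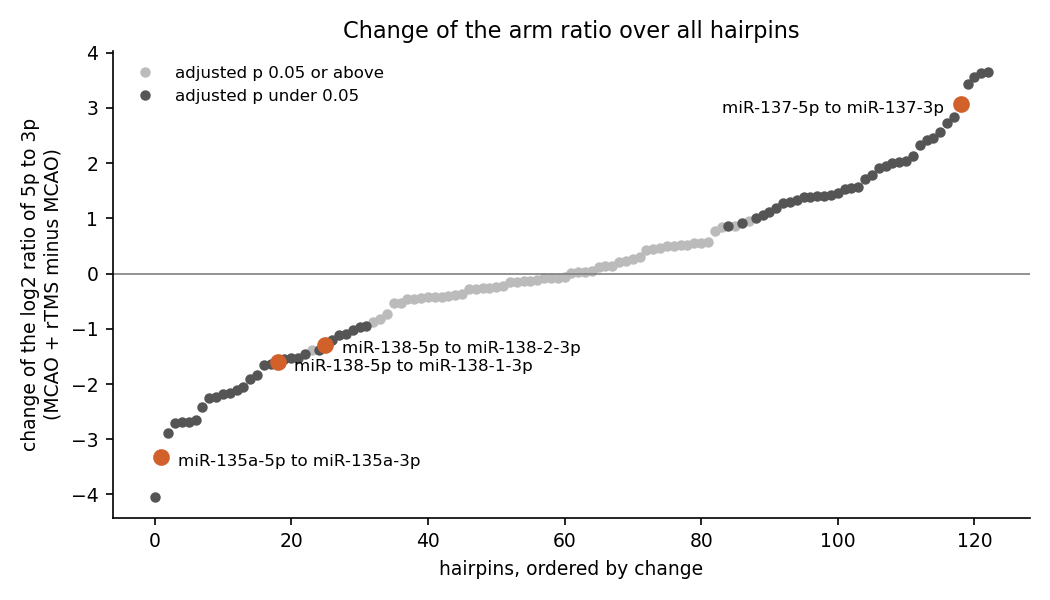
Change of the log2 ratio of the 5p to the 3p count between MCAO + rTMS and MCAO for 123 hairpins in order of the change, dark where the adjusted p of limma was under 0.05, with the 4 arm pairs of the group in orange. miR-135a lay near the lower end and miR-137 near the upper end, at -3.33 and 3.06.

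The arms of the remaining hairpins gave less. miR-138-1-3p was at 36.5, 35.1 and 26.2 CPM in the MCAO libraries and 24.3, 25.5 and 49.2 CPM in the MCAO + rTMS libraries. MCAO + rTMS replicate 3 was the highest of all 6, and the others of its group were the lowest (log2 fold change 0.015 ± 0.31 SE, adjusted p = 0.98). miR-138-2-3p, which marks the other locus, had a log2 fold change of -0.38 ± 0.20 (SE, adjusted p = 0.15) and was called lower by 2 other scalings, library totals (-0.999) and upper-quartile factors (-0.66). miR-135b-3p had counts of 28, 18 and 20 in the MCAO libraries and 11, 0 and 13 in the MCAO + rTMS libraries, with overlapping groups (log2 fold change -1.12, adjusted p = 0.30). With its 0 set to 9, the log2 ratio of miR-135b-5p to miR-135b-3p had a group difference of -1.29, and -0.24 with the 0 set to 1. At 9 the groups did not overlap (exact permutation test, two-sided, p = 0.1, adjusted p = 0.118 over 13 pairs). miR-218a-1-3p and miR-218b were not analysed here.

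Base composition moved with the changes over the whole table. Across the 414 tested miRNAs with a sequence, GC content and log2 fold change had a Spearman's rho of 0.29, where the miRNAs are not independent and share the same 6 libraries. The median log2 fold change was -0.76 in the quartile of lowest GC content and 0.19 in that of the highest. Of the 9 miRNAs, 6 lay in the lowest quartile, with miR-135a-5p the lowest at 30.4% GC, and 3 in the highest, miR-138-5p (56.5%), miR-138-1-3p and miR-218a-2-3p (59.1% each). With each library corrected for GC content in the edgeR fit, the log2 fold change was -1.66 for miR-135a-5p (adjusted p = 0.0015), -1.51 for miR-137-3p (adjusted p = 0.0082) and -1.78 for miR-138-5p (adjusted p = 0.00016). As given above, miR-135b-5p no longer passed the threshold. The adjusted p of edgeR with this correction was 0.0023 for miR-153-5p and 0.0014 for miR-218a-2-3p. Both passed the filter through the MCAO group alone, so these p-values are no separate support for a fall. The 3 members with no call had none with it either, at 0.075 for miR-218a-5p, 0.043 for miR-153-3p and -0.20 for miR-138-1-3p.

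**Figure D5:**
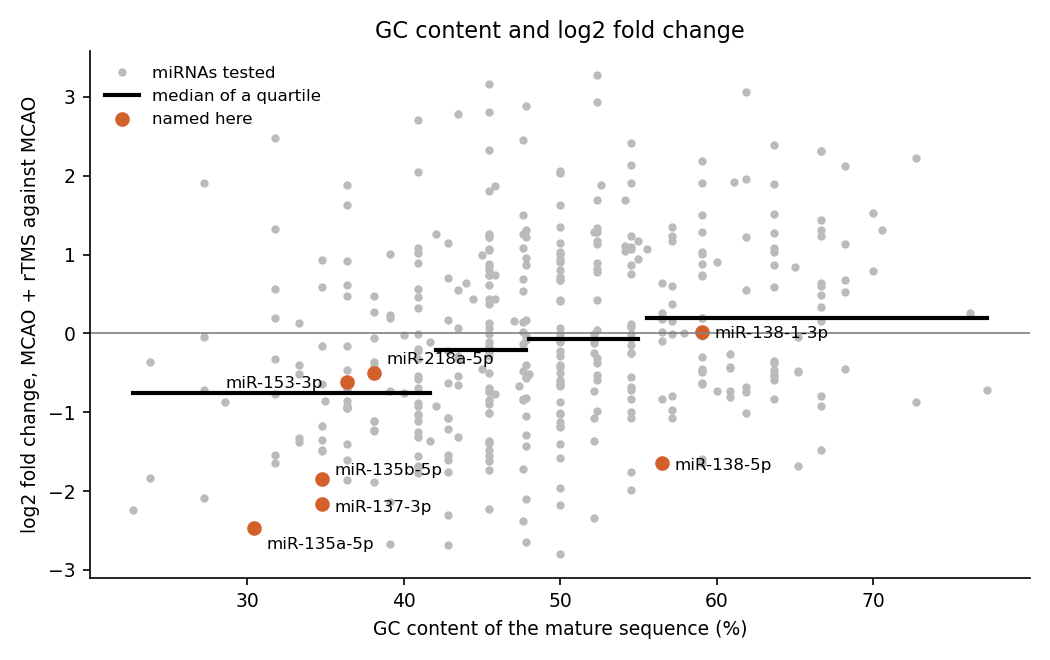
GC content of the mature sequence and log2 fold change between MCAO + rTMS and MCAO for 399 tested miRNAs (15 below -3.5, miR-153-5p and miR-218a-2-3p among them, are not drawn), with the median of each quartile of GC content as a black line. miR-135a-5p, miR-135b-5p, miR-137-3p and miR-138-5p lay below the median of their quartile.

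A list of 25 further miRNAs with known roles at dendrites or synapses was set beside the group. Of these, 24 were listed and 23 tested, and 14 passed the threshold, 8 lower and 6 higher in the MCAO + rTMS group, beside 28.1% and 27.2% of all tested. The median of the 23 log2 fold changes was -0.32, and it was 0.081 over 22 with the GC correction and -0.94 by library totals alone. By library totals alone 14 were called lower and 2 higher, beside 208 and 55 of all 452 tested. With upper-quartile factors it was 12 and 3, beside 172 and 85. With 1 library left out the number called lay between 6 and 15. It was 7, 6 and 9 without MCAO replicates 1, 2 and 3 and 8 without MCAO + rTMS replicate 2. Calls over all tested miRNAs also fell in these fits, from 250 in the main fit to 181, 179, 210 and 183.

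The list had members at both ends. The highest log2 fold changes were those of miR-485-5p (2.14 ± 0.20 SE), known to target a synaptic vesicle protein, miR-129-5p (1.35 ± 0.32 SE), which represses a potassium channel in dendrites, and miR-134-5p (1.03 ± 0.18 SE), which limits spine size through Limk1. Their adjusted p was 0.00027, 0.011 and 0.0031 in the same edgeR test. The rise of miR-134-5p was not called with library totals only (0.38, adjusted p = 0.16), nor that of miR-129-5p when log2 values were compared with equal variances (1.26, adjusted p = 0.064). The lowest were those of miR-19b-3p (-2.67 ± 0.82 SE), miR-223-3p (-1.76 ± 0.43 SE), which is chiefly a myeloid miRNA, and miR-29a-3p (-1.04 ± 0.16 SE), known from dendritic spines. Their adjusted p was 0.028, 0.012 and 0.0021. The fall of miR-19b-3p was not called without any single MCAO library (adjusted p = 0.089, 0.082 and 0.065 without replicates 1, 2 and 3), without MCAO + rTMS replicate 1 (0.078), with the GC correction (0.051) or with the replicate block (0.082). Its counts were 10, 0 and 16 in the stimulated libraries. That of miR-223-3p was not called with the replicate block (-1.85, adjusted p = 0.051 by edgeR).

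Markers of the cells that the tissue can hold moved as follows. The brain miRNAs miR-124-3p, miR-128-3p, miR-9a-5p, miR-129-5p and miR-127-3p were present in every library. Their summed level was 357617 to 463595 CPM in the MCAO libraries and 510037 to 738410 CPM in the MCAO + rTMS libraries, with 3 of 5 called higher (miR-127-3p, miR-128-3p and miR-129-5p), beside 27.2% of all tested. Most of the difference in the sum came from miR-128-3p, at a mean of 212037 and 341033 CPM. miR-124-3p was lower in every stimulated library without passing the threshold (-0.49, adjusted p = 0.086 by edgeR), and miR-9a-5p was at -0.16 with overlapping groups. Of the 5 myeloid miRNAs, 4 were called lower (miR-223-3p, miR-142-3p, miR-142-5p and miR-155-5p), beside 28.1% of all tested. The summed level of the 5 was 695 to 718 CPM in the MCAO libraries and 312 to 549 CPM in the MCAO + rTMS libraries. Most of this sum was miR-146a-5p, at a mean of 618 and 414 CPM. It was lower in every stimulated library without passing the threshold (-0.58, adjusted p = 0.078 by edgeR). The 3 oligodendrocyte miRNAs summed to 572 to 786 CPM and 963 to 2106 CPM. Of these, miR-219a-2-3p was called higher and made up most of the sum, at a mean of 692 and 1617 CPM. miR-338-3p was lower in every stimulated library without passing the threshold (-0.73, adjusted p = 0.060 by edgeR). miR-219a-5p was not tested, with counts of 10, 0 and 12 in the MCAO libraries and 0 in all stimulated libraries. The 4 miRNAs of vessels summed to 4931 to 9758 CPM and 6344 to 9568 CPM. Of these, miR-143-3p was called higher (mean 2452 and 5131 CPM) and miR-126a-5p lower, beside 27.2% and 28.1% of all tested. miR-126a-3p had a mean of 4842 and 2699 CPM, with overlapping groups and no call (-0.84, adjusted p = 0.054 by edgeR). miR-145-5p was at -0.079, also with overlap. Of the red cell miRNAs, miR-451-5p was called lower and miR-486 higher, beside the same shares of all tested. Their sum was 141 to 302 CPM and 513 to 637 CPM, and miR-144-3p was not analysed here. The part of these cells in the changes of the 9 miRNAs was not tested.

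For each member with at least 10 counts in every library, the most alike profile among the other tested miRNAs was sought as the smallest root mean square difference of log2(CPM + 1) values, each centred on its mean over the 6 libraries. It was that of miR-376a-5p for miR-135a-5p (0.25), miR-136-5p for miR-135b-5p (0.26) and miR-30e-5p for miR-137-3p (0.30). miR-376a-5p was at 33.0, 26.8 and 29.6 CPM in the MCAO libraries and 7.22, 5.73 and 5.05 CPM in the MCAO + rTMS libraries. For miR-218a-5p it was miR-132-3p (0.12), an activity-regulated miRNA that was also high in MCAO + rTMS replicate 3, and for miR-138-1-3p it was miR-676 (0.090). For miR-138-5p the smallest difference was to miR-17-1-3p (0.12), which was listed at 0 in all stimulated libraries. Its values there are set by the pseudocount of 1, so this is no measured likeness. By library totals alone it was miR-30e-5p (0.13).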

How the data were processed

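The authors deposited raw read counts of mature miRNAs, 1 column for each library, and a smaller table with the same counts for 73 miRNAs. The submitters' processing notes name bcl2fastq, BWA, DESeq2 and the build rn6. The miRNA database and how reads with more than 1 match were counted are not given in the sources used here. Libraries came from ligated adapters and PCR with no use of molecular identifiers, and counts therefore do not stand for independent molecules, and p-values measure the spread between 3 libraries a group. The counts were fitted in R 4.3.3 with edgeR 4.0.16 (filterByExpr, TMM factors, quasi-likelihood test, no block), and p-values were adjusted over the 452 miRNAs tested. The standard error is the size of the log2 fold change over the square root of F. Arm ratios were fitted with limma 3.58.1. A 0 was set to 9 in ratios. DESeq2 1.42.0, limma-voom and a two-sample test with equal variances, run on log2(CPM + 1), after the test that the study names, were alternatives, and the GC correction was an edgeR offset per library from a local regression (span 0.75), chosen with the data seen. The main edgeR fit, the fit of arm ratios and the GC correction were tested on simulated data. The other alternatives were not. Sequences and hairpin positions are from RefSeq (GRCr8), and no coordinate was used for counting. Exact tests used scipy 1.17.1 in Python 3.11.15, and figures matplotlib 3.10.9.

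The members, the lists and the tests were chosen with earlier results of these data known. Named miRNAs are all members, their other arms, the 3 highest and 3 lowest log2 fold changes of the list of synaptic miRNAs, the most alike profile of each member, and the markers. Same-numbered libraries of the 2 groups come from different animals, since only 1 group was stimulated, and no source pairs them. The PCR, staining and cell culture of the study were not analysed here.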

Additional observations from a re-analysis of the deposited data

How the results depend on the processing

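Over 18 alternative fits, miR-135a-5p, miR-137-3p and miR-138-5p were called lower each time, and miR-135b-5p each time but with the GC correction (-1.11, adjusted p = 0.071 by edgeR). The number of the 9 that was called lay between 4 and 7, and the number of all miRNAs called between 179 and 263. Reversals concerned members with no call. The log2 fold change of miR-138-1-3p, 0.015 with TMM factors, was -0.65 with library totals only, -0.26 with upper-quartile factors, -0.026 with a filter of 10 counts in all libraries, -0.048 with limma-voom, -0.044 with the equal-variance test, -0.053 with the replicate block and -0.20 with the GC correction, and lay between -0.36 and 0.20 when 1 library was left out. With the GC correction it was 0.075 for miR-218a-5p and 0.043 for miR-153-3p. The cause was not tested, beyond the shift of the median of all miRNAs that library totals and upper-quartile factors bring. The number called in the list of synaptic miRNAs lay between 6 and 15 when 1 library was left out, with fewer libraries in the fit. Over all tested miRNAs the number called then lay between 179 and 253. The difference in the share of counts held by the 9, -0.43 percentage points, was -1.21 when the 10 most abundant miRNAs were left out of the total, a smaller total by construction. Whether same-numbered libraries shared a step of preparation cannot be settled with 3 libraries a group. Over miRNAs, deviations from the group means correlated at 0.20, -0.12 and -0.11 for same-numbered libraries. For differently numbered libraries the correlations lay between -0.28 and 0.30. With the replicate block 180 miRNAs were called, 4 of the 9 among them. Setting each 0 to 1 in place of 9 moved the change of the log2 ratio from 0.73 to 2.84 for the arms of miR-153, from 0.86 to 4.03 for those of miR-218a and from -1.29 to -0.24 for those of miR-135b. Depth limits miR-153 and miR-218a-2-3p most, which had no more than 34 counts in any library.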
